A study of Arabidopsis thaliana with 18 samples.

Results

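The comparison described here asks which transcripts of greening Arabidopsis thaliana seedlings left their course for a short time around 2 h of light. It set the 3 libraries with 2 h of light against the average of the 3 libraries with 1 h and the 3 libraries with 4 h, on a log scale and for all genes, so it rests on 9 of the 18 libraries of the series. The seedlings were wild type and had grown in the dark for 7 days, which keeps them etiolated, that is pale, hooked and without chlorophyll. They were then lit for 2 h (the group of interest) or for 1 h or 4 h (the flanking groups), and the remaining groups had 0 h, 8 h or 12 h of light. The labels give whole seedlings as the material and polyA RNA as the molecule, while the series title speaks of the leaf, and markers of roots were present in the data (below). They give no accession or ecotype name, no light quality and no statement that replicates came from separate cultures, so the p-values measure only the spread between these samples, which may be technical. No group stayed in the dark for the added hours, so hours of light, seedling age and time of day cannot be told apart. Of 24951 genes listed in any library, 20179 had enough counts to be tested, and 2667 of them were called as higher or lower at 2 h. The value used for each gene, called the log2 contrast here, is the log2 level at 2 h minus the mean of the log2 levels at 1 h and at 4 h.

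Light ends the dark growth programme of a seedling through phytochromes and cryptochromes, and within hours the hypocotyl slows, the apical hook opens and the cotyledons expand and build chloroplasts. In the dark a seedling lives on its stored oil and sugars, and a set of dark-inducible genes, among them the asparagine synthetase ASN1, is known to be held high by low sugar and shut off when sugar or photosynthesis returns. The circadian clock is a loop of transcription factors in which morning factors such as LHY and CCA1 bind the evening element in front of evening genes such as TOC1, and light at dawn resets it. DNA replication genes are in turn known targets of E2F factors, which bind short motifs in front of them. These roles are background and not results of these data.

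To show what such control elements look like, stretches before the gene start were read from the RefSeq genome TAIR10.1. The first set holds the listed clock genes TOC1, PCL1 (LUX ARRHYTHMO), PRR5, FKF1 and BOA, and CCL, which is among the lowest genes named here. They are the 5 of 18 listed clock genes, and the 1 of the 10 lowest genes named here, that hold the element in the 250 bases before the gene start; the other 13 clock genes, RVE1, ELF4 and PRR7 among them, and the other 9 lowest genes hold none there. Each is written 5′ to 3′ on the strand of its gene, with the evening element AAAATATCT or its reverse complement in capitals.
TOC1: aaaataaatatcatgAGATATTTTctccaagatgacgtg
PCL1: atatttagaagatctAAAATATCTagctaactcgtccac
PRR5: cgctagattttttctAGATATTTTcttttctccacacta
FKF1: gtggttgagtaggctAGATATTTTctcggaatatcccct
BOA: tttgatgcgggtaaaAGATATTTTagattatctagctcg
CCL: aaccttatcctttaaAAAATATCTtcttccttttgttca
These stretches lie at chr5:24674797-24674835 (TOC1, plus strand), chr3:17182974-17183012 (PCL1, plus strand), chr5:8358710-8358748 (PRR5, minus strand), chr1:25508438-25508476 (FKF1, plus strand), chr5:24003830-24003868 (BOA, plus strand) and chr3:9827574-9827612 (CCL, plus strand). Counted back from the gene start, the first base of the element was at -151 in TOC1, -53 in PCL1, -187 in PRR5, -186 in FKF1, -43 in BOA and -93 in CCL.

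The second set holds the 5 of 19 listed cell division and DNA replication genes with an E2F site (PCNA1 is among the 14 without one in this window), written TTTCCCGC or TTTGGCGC or the reverse complement of either, again in capitals.
MCM2: aaattggcgccaataTTTCCCGCctaatc
MCM3: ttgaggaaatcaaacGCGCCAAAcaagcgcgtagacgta
MCM5: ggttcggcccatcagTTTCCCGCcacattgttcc
MCM6: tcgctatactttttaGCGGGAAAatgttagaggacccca
ORC1A: ttcttcgtgcaaacaTTTCCCGCcaaat
They lie at chr1:16970185-16970213 (MCM2, plus strand), chr5:18773853-18773891 (MCM3, minus strand), chr2:3527501-3527534 (MCM5, minus strand), chr5:18010690-18010728 (MCM6, minus strand) and chr4:8422145-8422172 (ORC1A, plus strand). The first base of the site was at -14, -170, -19, -46 and -13 in the same order.

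The 9 libraries were even in depth, with 22410156 to 22705846 expected counts each, where an expected count is an estimated number of reads for a gene. The 2 h libraries listed more genes with any count, 22819, 22813 and 22528, than the 1 h libraries with 22268, 22093 and 22147 and the 4 h libraries with 22265, 22373 and 22346. The difference of the means was 471 genes, and an exact two-sided permutation test of the 2 h libraries against the 6 flanking ones gave p = 0.0238, the smallest value that the 84 arrangements allow. Within the 2 h group, replicate 3 stood apart. Across genes, its log2 CPM (counts scaled to library depth, on the log2 scale) correlated with that of replicates 1 and 2 at r = 0.944 and 0.948, against 0.986 between replicates 1 and 2 and 0.9799 to 0.9896 between libraries of 1 h or of 4 h. Its share of counts from the mitochondrial genome was 0.0119%, against 0.00691% and 0.00664% in replicates 1 and 2. This share was the highest of the 18 libraries, with 0 h replicate 3 next at 0.011%. The part this played was not tested. The main counts, and those of several lists, are therefore given with and without 2 h replicate 3.

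More transcripts were high at 2 h than low. Of 20179 genes tested, 2255 (11.2%) were called higher at 2 h than the mean of the flanking times and 412 (2.04%) lower, by the edgeR quasi-likelihood test with a Benjamini-Hochberg adjusted p under 0.05 and a log2 contrast of at least 1 in size. Such a call also takes in genes that had stepped to a new level by 2 h and kept it at 4 h. A narrower class required in addition that 2 h differed from 1 h and from 4 h in the same direction, each at an adjusted p under 0.05. This left 1326 genes (6.57%) above both flanking times and 189 genes (0.937%) below both. Of the genes called higher, 706 differed from 1 h but not from 4 h, and of those called lower, 192 did. Across all genes tested the median log2 contrast was 0.05. The 3 libraries of 2 h lay above all 6 flanking libraries in 10.1% of all genes tested and below all 6 in 7.79%. They lay above all 6 in 79% of the genes above both and below all 6 in 94.7% of the genes below both. Both classes were chosen by differences between these same libraries. The shares within them therefore describe the classes and test nothing.

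**Figure D1:**
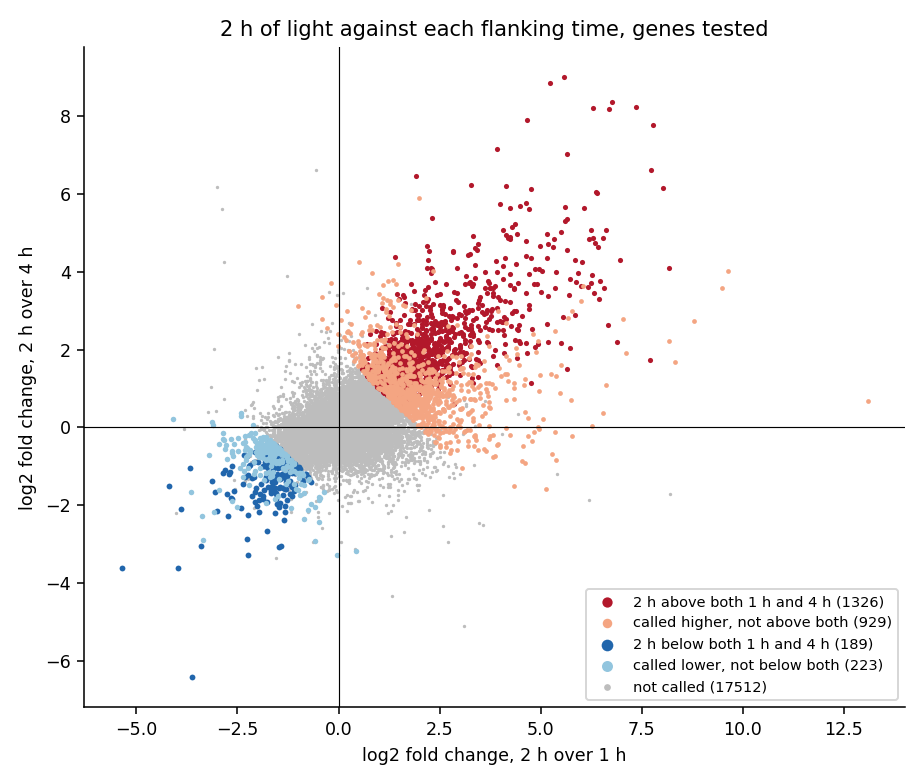
Each point is 1 of 20179 genes, placed by its log2 fold change of 2 h over 1 h (x axis) and of 2 h over 4 h (y axis). The 1326 genes above both flanking times (dark red) lie at the upper right, the 189 below both (dark blue) at the lower left, and pale colours mark called genes that differ from 1 flanking time only or from neither.

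The size of these classes depended on single libraries. Without 2 h replicate 3, 3046 genes were called higher (14.9%) and 1015 lower (4.96%), and 2510 (12.3%) and 789 (3.86%) were above and below both flanking times. Leaving out 4 h replicate 1, 2 h replicate 1, 2 h replicate 2 or 4 h replicate 2 gave fewer genes, 624, 675, 687 or 752 above both and 74, 75, 74 or 108 below both. In the 2345 genes above both without 2 h replicate 3 that were also tested in the full set, that library had a median distance from the flanking mean of 0.59 on the log2 scale, against 1.69 for replicate 1 and 1.66 for replicate 2. In 787 genes below both its median distance was -0.45, against -1.48 and -1.24. These genes were chosen by replicates 1 and 2 and by the flanking libraries that also give the distance, so the distances describe the libraries and test nothing.

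The highest and lowest genes named here were ranked among genes above or below both flanking times. Their 2 h libraries were also free of overlap with the flanking ones, with at least 10 CPM in the higher group. By that ranking the lowest gene was BT1, a BTB and TAZ domain protein. Its family is known to answer to sugar, nitrate and the time of day. BT1 had 8.47, 9.91 and 17.25 FPKM (a level scaled to gene length and library depth) at 2 h, against 165.12, 194.2 and 131.62 FPKM at 1 h and 133.54, 116.87 and 155.02 FPKM at 4 h. No 2 h library came near a flanking one. Its log2 contrast was -3.79 ± 0.28 (SE, 3 libraries per group; edgeR adjusted p = 0.00018), and -4.14 without 2 h replicate 3. Its relative BT2 had 39.17, 59.35 and 64.45 FPKM at 2 h, against 217.83, 268.85 and 222.3 FPKM at 1 h and 399.6, 331.65 and 403.2 FPKM at 4 h, a log2 contrast of -2.57 ± 0.19 (edgeR adjusted p = 0.0002). Both genes were high again later: BT1 had 443.47, 329.31 and 355.8 FPKM at 8 h and BT2 had 809.2, 766.66 and 755.99 FPKM.

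Dark-inducible and sugar starvation genes, a list without BT1 and BT2, were also low at 2 h. Of the 15 listed dark-inducible and sugar starvation genes, 9 were called lower at 2 h and none higher, 7 were below both flanking times, and their median log2 contrast was -1.23. Among all genes tested, 2.04% were called lower and 0.937% were below both. Without 2 h replicate 3, 11 of the list were lower and 1 higher, with a median of -1.66, beside 4.96% of all genes tested called lower. ASN1 (DIN6), which makes asparagine as a store of nitrogen when carbon is short, had 47.93, 68.83 and 200.06 FPKM at 2 h, against 444.12, 631.33 and 623.47 FPKM at 1 h and 381.93, 336.31 and 229.56 FPKM at 4 h. All 3 libraries of 2 h lay below all flanking ones, replicate 3 narrowly, and the log2 contrast was -2.11 ± 0.44 (edgeR adjusted p = 0.00664). BCAT-2, which starts the breakdown of branched-chain amino acids, had 37.15, 51.78 and 111.74 FPKM at 2 h, against 359.28, 485.05 and 416.43 FPKM at 1 h and 135.58, 132.42 and 136.49 FPKM at 4 h (log2 contrast -1.95 ± 0.31, edgeR adjusted p = 0.00298). MCCA, a subunit of methylcrotonyl-CoA carboxylase in leucine breakdown, had a log2 contrast of -1.79 ± 0.25 (edgeR adjusted p = 0.00195). For BCAT-2 and MCCA the counts were mostly fractional, meaning that the authors' counting divided reads between genes, and both overlap another listed locus, so their values are uncertain. SEN1 (DIN1), a senescence marker of the same group, had 85.44, 128.91 and 232.51 FPKM at 2 h, against 628.73, 809.32 and 539.99 FPKM at 1 h and 263.19, 239.22 and 240.06 FPKM at 4 h, so it was lower than the flanking mean (-1.55 ± 0.28, edgeR adjusted p = 0.00441) without being called below both.

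Several clock genes dipped at 2 h as well. Of 18 listed clock genes, 6 were called lower and 1 higher, 5 were below both flanking times, and the median log2 contrast was -0.71 (without 2 h replicate 3, 9 lower, 1 higher and a median of -0.98). Among all genes tested, 2.04% were called lower, 11.2% higher and 0.937% below both. Without 2 h replicate 3 those called lower were 4.96% and those called higher 14.9%. The clock list as a whole was also low at 4 h. On the log2 scale it averaged -0.94, -0.72 and -0.46 from the flanking mean at 2 h. At 4 h it averaged -0.53, -0.68 and -0.4, and at 1 h 0.56, 0.63 and 0.42. Much of the list value was thus a fall from 1 h that was kept at 4 h. RVE2, a MYB factor related to CCA1, was named by its size and not by the list. It had 37.84, 40.95 and 34.64 FPKM at 2 h, against 431.31, 493.16 and 389.52 FPKM at 1 h and 69.44, 62.92 and 93.62 FPKM at 4 h (log2 contrast -2.36 ± 0.17, edgeR adjusted p = 0.00016). The step between 2 h and 1 h was large, and 4 h remained far under 1 h. RVE1, a relative that links the clock to auxin, had 31.3, 28.46 and 57.91 FPKM at 2 h, against 215.23, 241.6 and 203.9 FPKM at 1 h and 74.36, 65.55 and 85.39 FPKM at 4 h (-1.82 ± 0.23, edgeR adjusted p = 0.00146). The evening gene TOC1 had 28.48, 35.56 and 43.28 FPKM at 2 h, against 118.72, 127.3 and 107.41 FPKM at 1 h and 69.85, 60.48 and 73.32 FPKM at 4 h (-1.42 ± 0.15, edgeR adjusted p = 0.000704). ELF4, a part of the evening complex, had a log2 contrast of -1.18 ± 0.18 (edgeR adjusted p = 0.00273), with 40.14, 50.27 and 40.69 FPKM at 2 h under every flanking library. PCL1 and PRR7 were the other listed genes below both, at -1.10 and -1.03. The morning gene LHY was the member called higher, at 1.18 ± 0.13 (edgeR adjusted p = 0.001), but it had no peak: 59.07, 52.19 and 43.14 FPKM at 2 h stood beside 64.5, 59.37 and 61.3 FPKM at 1 h and 5.93, 6.95 and 8.82 FPKM at 4 h, so its positive value came from the low level at 4 h. Of the 5 listed clock genes whose evening element is printed above, TOC1 and PCL1 were below both flanking times, PRR5 was called lower (-1.04) and FKF1 and BOA, at -0.63 and -0.98, were not called.

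CCL, a gene of the daily rhythm whose transcript is known to be short-lived, had 45.73, 32.84 and 129.08 FPKM at 2 h, against 542.69, 680.46 and 323.04 FPKM at 1 h and 174.71, 215.06 and 231.83 FPKM at 4 h (-2.35 ± 0.45, edgeR adjusted p = 0.00512; -3.15 without 2 h replicate 3). The remaining genes among the 10 lowest were AT5G18600, a thioredoxin superfamily protein (-2.24 ± 0.55), AT3G05950, a cupin (-2.24 ± 0.27), the blue copper-binding protein BCB (-2.07 ± 0.44), AT1G72060, annotated as a peptidase inhibitor (-2.25 ± 0.39), and MEE59 (-2.01 ± 0.19). AT5G18600 had 2.68, 1.92 and 13.68 FPKM at 2 h, against 20.8 to 31.19 FPKM in the 6 flanking libraries. For AT1G72060 and MEE59 the counts were mostly fractional and the loci overlap another one, so their values are uncertain. In these genes replicate 3 was the highest of the 2 h libraries. The call of AT5G18600 is lost without 2 h replicate 1 (-1.9, edgeR adjusted p = 0.0504).

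**Figure D2:**
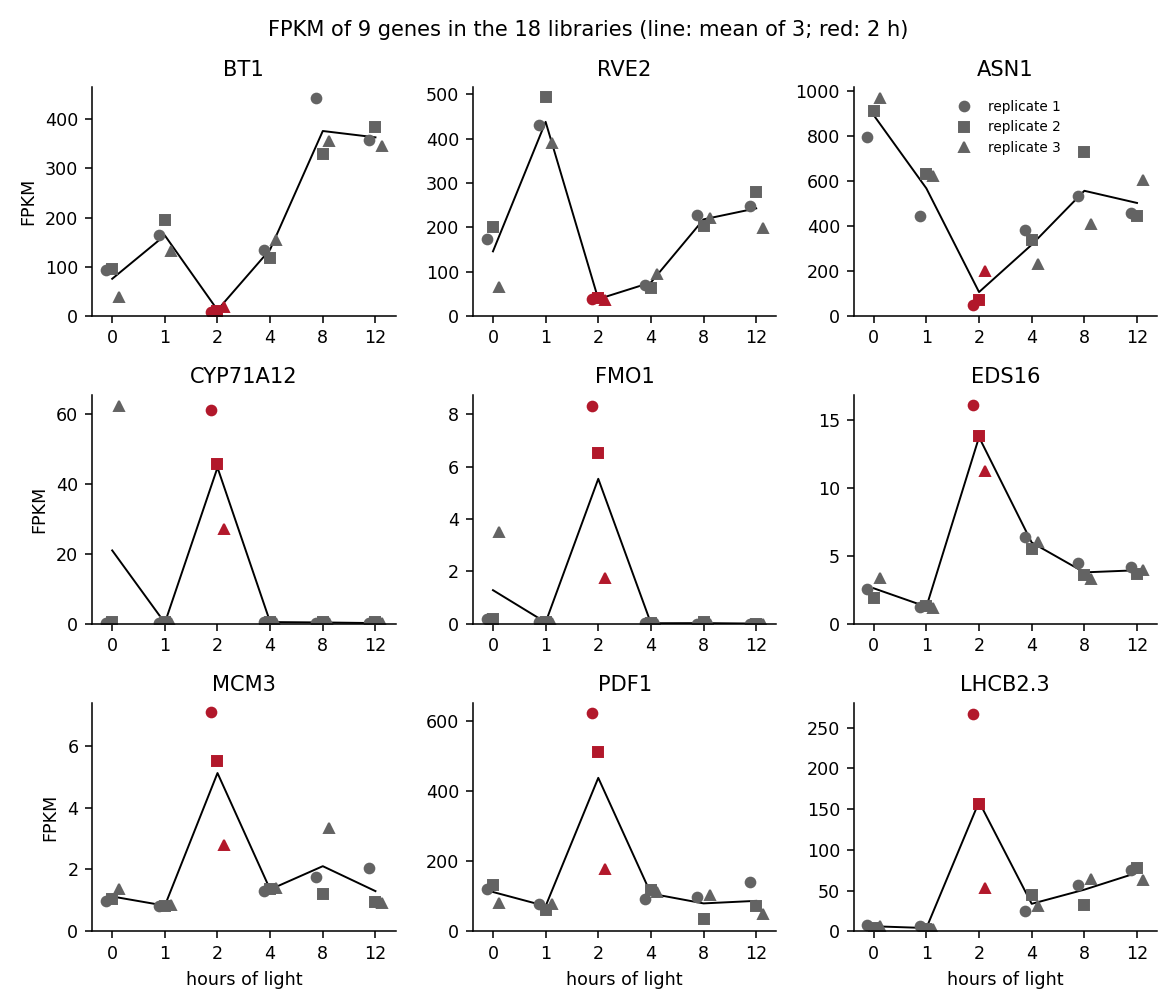
FPKM (y axis) against hours of light (x axis, 6 groups, not to scale) for 9 genes, with a symbol per replicate, the 2 h libraries in red and a line through the means of 3 libraries. BT1, RVE2 and ASN1 have their lowest points at 2 h, the other 6 genes their highest mean, and CYP71A12 and FMO1 are also high in 0 h replicate 3.

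Heat shock genes, which refold or clear damaged proteins, were low at 2 h. Of 19 listed heat shock genes, 10 were called lower and none higher, 5 were below both flanking times, and the median log2 contrast was -1.15 (12 lower and a median of -1.46 without 2 h replicate 3). Among all genes tested, 2.04% were called lower (4.96% without 2 h replicate 3) and 0.937% were below both. HSFA2, the heat-induced transcription factor that prolongs the response, had 8.76, 8.81 and 17.99 FPKM at 2 h, against 75.98, 51.45 and 75.76 FPKM at 1 h and 16.45, 27.86 and 30.9 FPKM at 4 h (-1.91 ± 0.3, edgeR adjusted p = 0.00284). Replicate 3 of 2 h overlapped the lowest 4 h library, 4 h replicate 1, which was low throughout this list, at a mean of -0.93 from the flanking mean on the log2 scale against 0.11 and 0.39 in the other 4 h libraries. HSP101, the chaperone that pulls proteins out of aggregates, had 21.95, 18.99 and 38.27 FPKM at 2 h, against 132.48, 73.35 and 162.32 FPKM at 1 h and 31.42, 75.77 and 102.05 FPKM at 4 h (-1.91 ± 0.41, edgeR adjusted p = 0.00785). Here too replicate 3 of 2 h lay above 4 h replicate 1, and the counts were mostly fractional. BAG6, a co-chaperone, and HSFA7A, another heat shock factor, had log2 contrasts of -1.64 ± 0.47 and -1.19 ± 0.18 (edgeR adjusted p = 0.0238 and 0.00275). The call of BAG6 is lost without 2 h replicate 1 or 2 h replicate 2 (edgeR adjusted p = 0.0987 and 0.0923). The dark level of HSFA2, at 3.53, 3.41 and 3.49 FPKM, was below its level at 2 h, so 2 h was a dip between flanking times and not a return to the dark state.

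DREB and CBF factors, which bind the dehydration and cold response element, included further low genes. Of 16 listed ERF and DREB factors, 6 were called lower and 2 higher, with 3 below both flanking times and a median log2 contrast of -0.44. The share called higher is near that of all genes tested (11.2%), and the share called lower lies above it (2.04%). Without 2 h replicate 3, 5 were lower and 2 higher, with a median of -0.59. On this list 2 h replicate 3 averaged 0.28 from the flanking mean on the log2 scale, against -0.43 and -0.09 for replicates 1 and 2. DREB2B had 3.73, 3.95 and 7.61 FPKM at 2 h, against 21.61, 25.14 and 16.76 FPKM at 1 h and 10.21, 8.46 and 10.62 FPKM at 4 h (-1.6 ± 0.25, edgeR adjusted p = 0.00272; mostly fractional counts). CBF1 was high at 1 h only: it had 0.32, 0.4 and 1.25 FPKM at 2 h, 5.6, 5.76 and 3.91 FPKM at 1 h and 0.49, 0.57 and 0.73 FPKM at 4 h, so its log2 contrast of -1.51 ± 0.41 (edgeR adjusted p = 0.019) was no dip. The members called higher were AT5G51190 (ERF105), at 4.24 ± 1.02, and TINY2, at 3.55 ± 0.66, neither of them above both flanking times. Of 20 abscisic acid and dehydration genes, 2 were called lower, RD26 and LTI30, but all 20 log2 contrasts were negative and the median was -0.80. Without 2 h replicate 3 the count of lower genes was 12 and the median -1.24, and replicate 3 itself averaged -0.16 on this list against -1.47 and -1.05 for replicates 1 and 2. Of 13 ethylene genes 3 were lower, among them the ethylene-forming enzyme EFE with 61.2, 56.1 and 116.26 FPKM at 2 h, against 131, 150.81 and 162.36 FPKM at 1 h and 236.48, 291.47 and 96.8 FPKM at 4 h (-1.28 ± 0.35, edgeR adjusted p = 0.0194). The ethylene synthesis gene ACS5 was called higher at 3.95 ± 0.83 and ACS4 lower at -2.63 ± 0.76, both at no more than 1.04 FPKM in any of the 9 libraries. Without 2 h replicate 3, 5 ethylene genes were lower and all 5 were below both flanking times, against 1 below both with it. The call of AT5G51190 is lost in DESeq2's test and in the fit of all 18 libraries. The calls of CBF1, RD26, LTI30, EFE and ACS4 are lost without 2 h replicate 1 and without 2 h replicate 2, at edgeR adjusted p between 0.0733 and 0.135; RD26 is also lost without 1 h replicate 2, ACS4 without 4 h replicate 1, and LTI30 without any library but 2 h replicate 3 and 4 h replicate 2.

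Several of the 16 highest genes named here were close to silent at 1 h and 4 h. AT1G26390, the highest, a berberine bridge enzyme-like oxidase, had 43.48, 32.88 and 20.73 FPKM at 2 h, against 0.13, 0.36 and 0.05 FPKM at 1 h and 0.25, 0.05 and 0 FPKM at 4 h. Its log2 contrast was 7.8 ± 0.48 (edgeR adjusted p = 7.78e-05), and 8.05 without 2 h replicate 3. CYP71A12, a cytochrome P450 that makes indole acetonitrile in pathogen defence, had 61.1, 45.65 and 26.96 FPKM at 2 h, against 0.15, 0.36 and 0.06 FPKM at 1 h and 0.53, 0.47 and 0.3 FPKM at 4 h (7.16 ± 0.35, edgeR adjusted p = 3.69e-05). CYP82C2, which hydroxylates indole carbonyl nitrile, a defence compound, had 18.92, 10.14 and 12.91 FPKM at 2 h, against 0.15, 0.12 and 0.31 FPKM at 1 h and 0.89, 0.91 and 0.29 FPKM at 4 h (5.14 ± 0.34, edgeR adjusted p = 0.000127). In each of these genes every 2 h library stood far above every flanking one. Where flanking libraries are near 0, the fitted log2 value depends on the small count added before taking logs and is best read beside the FPKM values. Such genes passed the filter on counts through the 2 h group and could be called only higher.

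Among 15 listed salicylate and pattern immunity genes, 6 were called higher and none lower, 5 were above both flanking times, and the median log2 contrast was 0.84. Without 2 h replicate 3 the counts were 7 and none, with a median of 0.98. Among all genes tested, 11.2% were called higher, 2.04% lower and 6.57% above both. Members near silent at 1 h and 4 h, such as FMO1 and PBS3, passed the filter on counts through the 2 h group. For them a call of higher was largely set in advance. FMO1, the enzyme that makes N-hydroxypipecolic acid for systemic resistance, had 8.32, 6.53 and 1.75 FPKM at 2 h, against 0.05, 0.07 and 0.02 FPKM at 1 h and 0.02, 0.02 and 0 FPKM at 4 h (7.44 ± 0.6, edgeR adjusted p = 0.000255). PBS3, which joins isochorismate to glutamate on the way to salicylic acid, had 7.45, 6.07 and 4.05 FPKM at 2 h, against 0.13, 0.08 and 0 FPKM at 1 h and 0.47, 0.09 and 0.04 FPKM at 4 h (5.52 ± 0.57, edgeR adjusted p = 0.000701). EDS16, the isochorismate synthase at the start of that route, had 16.1, 13.86 and 11.26 FPKM at 2 h, against 1.25, 1.32 and 1.15 FPKM at 1 h and 6.4, 5.49 and 6.04 FPKM at 4 h (2.24 ± 0.13, edgeR adjusted p = 6.94e-05). It was above both flanks but had not returned to its 1 h level by 4 h. PAD3, the last enzyme of camalexin synthesis, had a log2 contrast of 4.33 ± 0.48 (edgeR adjusted p = 0.000926) with 4.35, 2.64 and 1.12 FPKM at 2 h. The upstream immune regulators EDS1, PAD4, NPR1 and SARD1 were not called, at 0.57, 0.84, -0.15 and 0.59, and none of 19 WRKY factors was called (median -0.34; 4 lower without 2 h replicate 3).

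Further genes of the 16 highest have less known roles. AT5G38910, a cupin, had 51.09, 38.43 and 6.35 FPKM at 2 h, against at most 0.42 FPKM in the flanking libraries (7.57 ± 0.72). AT5G04120, annotated as a phosphoglycerate mutase family protein, had 80.55, 77.91 and 2.94 FPKM at 2 h, against 1.34, 1.59 and 0.17 FPKM at 1 h and 0, 0 and 0.29 FPKM at 4 h (7.28 ± 1.03), so replicate 3 was the 1 low value of its group. It overlaps another locus. AT3G13610, annotated as an oxoglutarate-dependent oxygenase and known as F6'H1, the entry to coumarin synthesis, had 40.16, 28.36 and 20.26 FPKM at 2 h, against 1.18, 2.09 and 0.31 FPKM at 1 h and 0.94, 0.21 and 0.48 FPKM at 4 h (5.09 ± 0.47; mostly fractional counts). The lectin receptor kinase AT2G29220, the sulfotransferase ST4B, the lipid-binding AT2G16005 and the cysteine proteinase AT2G27420 had log2 contrasts of 6.34, 5.58, 4.72 and 4.72, and the lipid transfer-like AT5G46890, with mostly fractional counts, had 5.21. All 16 kept an adjusted p under 0.05 without 2 h replicate 3 (edgeR).

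Extensins were among the 16 highest genes, and 6 of 7 tested root hair markers were called higher. AT1G26240, a proline-rich extensin-like protein, had 9.83, 6.21 and 8.16 FPKM at 2 h, against 0.05, 0.15 and 0.05 FPKM at 1 h and 0.3, 0.05 and 0 FPKM at 4 h (6.21 ± 0.5, edgeR adjusted p = 0.000255). The extensins AT3G54580 and HRGP1, neighbours by locus number with mostly fractional counts, had 5.51 ± 0.7 and 5.52 ± 0.75. Of 7 root hair markers tested, 6 were called higher and 5 were above both flanking times, with a median log2 contrast of 3.93. Of all genes tested, 11.2% were called higher and 6.57% were above both. PRP3, a wall protein of root hairs, had 4.36, 3.8 and 2 FPKM at 2 h, against 0.04, 0.41 and 0.04 FPKM at 1 h and 0.07, 0.04 and 0.07 FPKM at 4 h (4.94 ± 0.56, edgeR adjusted p = 0.000991). RHS19 and SHV2 (COBL9) had 5.16 ± 0.48 and 5.1 ± 0.61. EXPA7, an expansin of root hairs, had 0.96, 1.04 and 0.72 FPKM at 2 h, against at most 0.16 FPKM in the flanking libraries (3.93 ± 0.55). All of these were low levels: the summed FPKM of the 8 matched members was 9.88 to 16 at 2 h, against 1.08 to 2.21 at 1 h and 2.77 to 3.22 at 4 h, and 1 of them was at 0 in all 6 flanking libraries. Members near silent at 1 h and 4 h passed the filter on counts through the 2 h group, where they were high. For them a call of higher was largely set in advance.

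Of 5 shoot epidermis markers tested, 3 were called higher, all of them above both flanking times, and the median was 2.14. For this and the marker lists that follow, the shares over all genes tested were 11.2% called higher and 6.57% above both. PDF1, a proline-rich protein of the outermost cell layer, had 621.49, 511.75 and 177.64 FPKM at 2 h, against 78.74, 59.54 and 77.25 FPKM at 1 h and 91.11, 118.83 and 112.12 FPKM at 4 h (2.23 ± 0.31, edgeR adjusted p = 0.00197). GL2 and TTG2, regulators of trichomes and of root epidermis, had 2.75 ± 0.46 and 2.14 ± 0.41, while ATML1, the regulator of epidermal identity, was not called at 0.52. Of 8 xylem markers, 7 were called higher and 2 were above both, with a median of 1.26. IRX9, which builds xylan of secondary walls, had 9.88, 12.46 and 2.9 FPKM at 2 h, against 2.75, 1.78 and 3.48 FPKM at 1 h and 1.98, 1.71 and 4.09 FPKM at 4 h (1.59 ± 0.43, edgeR adjusted p = 0.0191). In xylem the difference rested on replicates 1 and 2, which averaged 1.47 and 1.73 above the flanking mean, while replicate 3 averaged 0.11. Without 2 h replicate 3, 7 xylem markers were above both, beside 12.3% of all genes tested. The call of IRX9 is lost without 2 h replicate 1 or 2 h replicate 2 (edgeR adjusted p = 0.0754 and 0.0989), and so are those of EPF2 (0.114 and 0.0645) and of the xylem genes CESA4, IRX3 and XCP1. None of 10 root endodermis and stele markers was called (median 0.45), none of 7 phloem markers (median -0.27), and 2 of 8 guard cell markers were, SPCH and EPF2, neither above both. None of 8 seed storage markers was called, and their summed FPKM ranged widely, over 1980 to 7910 at 2 h, 4210 to 8650 at 1 h and 517 to 2320 at 4 h, so the compared libraries held unequal amounts of seed transcripts, highest in 2 h replicate 3 within its group. In whole seedlings a change in the share of a cell type and a change of RNA per cell cannot be told apart, and the part that unequal tissue played in the other results was not tested.

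**Figure D3:**
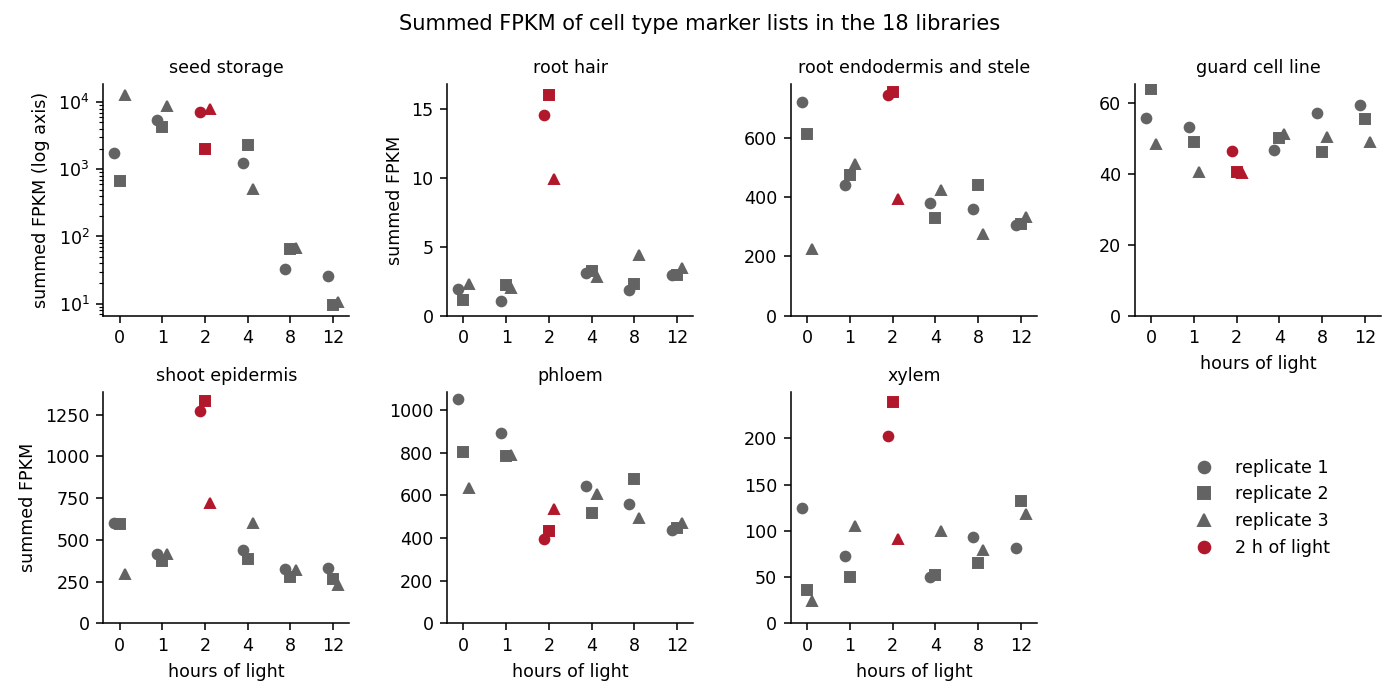
Summed FPKM of the markers of 7 cell types (y axis, linear from 0 except for seed storage on a log axis) against hours of light (x axis) in 18 libraries, with a symbol per replicate and the 2 h libraries in red. The root hair, shoot epidermis and xylem sums are highest in 2 h libraries, the phloem sum is lowest in 2 h replicate 1, and xylem in 2 h replicate 3 lies within the range of other times.

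Cell division and DNA replication genes were the list with the largest share of members above both flanking times among the 23 pathway lists. Of 19 tested, 15 were called higher, 14 of them above both, none was lower, and the median log2 contrast was 1.38 (17 higher, median 1.63, without 2 h replicate 3). Among all genes tested, 11.2% were called higher, and 14.9% without 2 h replicate 3. PCNA1, the sliding clamp of DNA polymerase, had 10.24, 6.73 and 3.67 FPKM at 2 h, against 1.04, 0.8 and 1.24 FPKM at 1 h and 1.58, 1.5 and 1.23 FPKM at 4 h (2.41 ± 0.3, edgeR adjusted p = 0.00137). MCM3, a subunit of the replicative helicase, had 7.08, 5.5 and 2.78 FPKM at 2 h, against 0.82, 0.81 and 0.86 FPKM at 1 h and 1.31, 1.36 and 1.39 FPKM at 4 h (2.18 ± 0.25, edgeR adjusted p = 0.00101). The other helicase subunits MCM6 and MCM2 both had 2.04, with standard errors of 0.28 and 0.21. All 3 libraries of 2 h lay above all flanking ones in these 4 genes, with replicate 3 lowest of the group. Mitotic genes were among them: the B-type cyclin gene CYC1BAT (CYCB1;2), CDKB1;2 and SYP111 (KNOLLE), the syntaxin of the division plane, had 1.38, 1.37 and 1.31. Of the 4 MCM genes whose E2F site is printed above, all were above both flanking times, while ORC1A, with a site as well, was not called at 0.57. Of 30 tested genes annotated as a histone superfamily protein, a group chosen after its values were seen, 8 (26.7%) were above both and none below. Of all genes tested, 6.57% were above both and 0.937% below both.

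Auxin response genes were split. Of 20 tested, 11 were called higher, 7 of them above both, and none lower, with a median log2 contrast of 1.28. Among all genes tested, 11.2% were called higher and 6.57% were above both. The 11 auxin genes called higher included 6 SAUR genes, which encode small proteins that promote cell expansion. SAUR19 had 3.24, 2.96 and 1.23 FPKM at 2 h, against 0.2, 0.09 and 0.1 FPKM at 1 h and 0.24, 0.31 and 0.22 FPKM at 4 h (3.69 ± 0.42, edgeR adjusted p = 0.00104). SAUR22 had 3.38 ± 0.68 and SAUR23 had 2.97 ± 0.49. These SAUR genes are near copies, and counts of SAUR19 and SAUR23 were mostly fractional. Members near silent at 1 h and 4 h, such as SAUR19, passed the filter on counts through the 2 h group. For them a call of higher was largely set in advance. GH3.1, which conjugates auxin to amino acids, was called higher at 2.56 ± 0.5 with at most 1.07 FPKM. IAA1, AXR3 (IAA17) and IAA19, repressors that auxin induces, were above both at 1.33, 1.25 and 1.48, although AXR3 in 2 h replicate 3, at 36.45 FPKM, lay under 1 of the 1 h libraries, and IAA2, IAA13 and IAA14 were not called at -0.18, -0.11 and -0.01.

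Photosynthesis genes had positive contrasts of another shape. Of 19 antenna genes, 11 were called higher but only LHCB2.3 was above both flanking times, and of 23 photosystem core subunits 4 were called higher and none was above both. Of all genes tested, 11.2% were called higher and 6.57% were above both, so 4 of 23 called higher is not far above the general share. LHCB2.2 and PSAH2 show a step up by 2 h that was mostly kept at 4 h. LHCB2.2, an antenna protein of photosystem II, had 893.61, 558.32 and 509.17 FPKM at 2 h, against 87.59, 58.81 and 42.12 FPKM at 1 h and 389.36, 421.17 and 332.8 FPKM at 4 h (1.98 ± 0.24, edgeR adjusted p = 0.0014). LHCB2.3 had 267.53, 156.21 and 53.37 FPKM at 2 h, against 6.21, 2.97 and 2.91 FPKM at 1 h and 25.3, 44.73 and 31.29 FPKM at 4 h (3.68 ± 0.44, edgeR adjusted p = 0.00124). Both have mostly fractional counts, since antenna genes are near copies, so a split of reads between them is uncertain. PSAH2, a photosystem I subunit, had 632.78, 481.04 and 247.6 FPKM at 2 h, against 76.82, 52.23 and 43.86 FPKM at 1 h and 429.85, 459.34 and 356.62 FPKM at 4 h (1.46 ± 0.27). Of 23 chlorophyll synthesis genes 6 were called higher and none above both, and PCB2, the divinyl reductase, had 30.72, 21.12 and 5 FPKM at 2 h, against 0.87, 0.76 and 0.93 FPKM at 1 h and 9.94, 12.02 and 11.14 FPKM at 4 h (2.54 ± 0.43). In PCB2 the 2 h libraries lay on both sides of the 4 h ones.

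Early light response genes had a like pattern, with 6 of 23 called higher and none above both, beside 11.2% and 6.57% of all genes tested. ELIP1, which protects forming photosystems from excess light, had 1072.72, 874.74 and 218.23 FPKM at 2 h, against 108.01, 44.03 and 49.21 FPKM at 1 h and 334.35, 295.71 and 380.49 FPKM at 4 h (2.18 ± 0.44, edgeR adjusted p = 0.00617). Replicates 1 and 2 were above every 4 h library and replicate 3 below every one. Without replicate 3, 4 genes of this list and 3 of the chlorophyll list were above both flanking times. The flavonoid genes FLS1 and TT4 (chalcone synthase) had 2.78 ± 0.65 and 2.22 ± 0.52, again with replicate 3 of 2 h far under the others, and both calls are lost without 2 h replicate 1 (edgeR adjusted p = 0.0524 and 0.0626), that of FLS1 also with limma on log2(FPKM + 1). The light signalling regulators HY5, HYH, COP1 and PIF3 were not called, at -0.22, 0.12, 0.21 and 0.04.

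**Figure D4:**
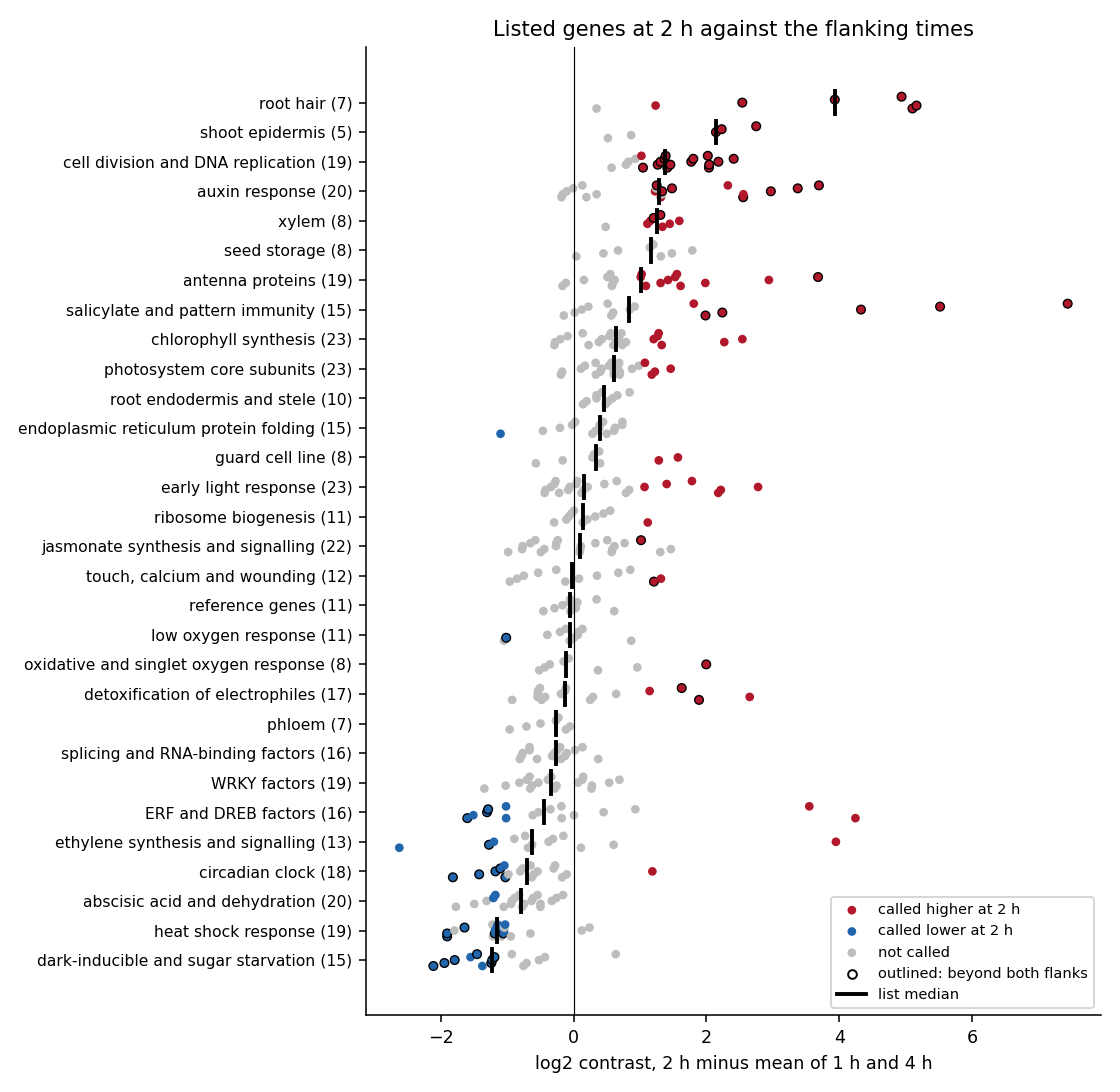
The log2 contrast (x axis) of each tested member of 30 lists (rows, tested members in brackets), red where called higher at 2 h, blue where called lower, grey where not called, outlined in black where 2 h lay beyond both flanking times, with a bar at the list median. By list median, root hair, shoot epidermis and cell division stand highest and dark-inducible and heat shock genes lowest, while the 11 reference genes lie between -0.46 and 0.61.

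Counts were mostly fractional, and values therefore less certain, also for PCL1, BOA, CBF1, AT5G51190, EDS1, SARD1, GL2, CYC1BAT, CDKB1;2, SYP111, ORC1A, IAA14 and PSAH2 named above, and for ARGAH2, AOC3, FIB2 and NAC102 below. The remaining lists had few calls, beside 11.2% of all genes tested called higher and 2.04% called lower. Of 17 detoxification genes 4 were called higher, with GSTF7 at 265.15, 262.61 and 211.79 FPKM at 2 h, against 52.48, 72.27 and 57.36 FPKM at 1 h and 67.05, 69.65 and 55.22 FPKM at 4 h (1.89 ± 0.14, edgeR adjusted p = 0.00016), and GSTF6 at 1.63 ± 0.17; both are glutathione transferases with mostly fractional counts. GSTU25 and GSTU8 were called higher at 2.65 and 1.14 without being above both. Of 12 touch genes 2 were called higher, the calcium pump gene AT3G63380 (ACA12) at 1.21 ± 0.11 and the arginase ARGAH2 at 1.31 ± 0.25. The calls of AOC3 and AT3G28580 below are lost without 2 h replicate 1 (edgeR adjusted p = 0.0612 and 0.0564). One gene each was called among 22 jasmonate genes (AOC3, higher at 1.01), 8 oxidative response genes (AT3G28580, higher at 2.00), 11 ribosome biogenesis genes (FIB2, higher at 1.12), 15 genes of protein folding in the endoplasmic reticulum (TIN1, lower at -1.10) and 11 low oxygen genes (NAC102, lower at -1.02). None of 16 splicing factors reached the minimum size, although SR30, SCL33, RS40 and SR34 had adjusted p between 0.0016 and 0.00774 (edgeR) at contrasts between -0.81 and -0.66. None of the 11 reference genes was called, though ACT7 and UBQ10 had an adjusted p under 0.05 at contrasts smaller than 1, and their median log2 contrast was -0.05.

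**Figure D5:**
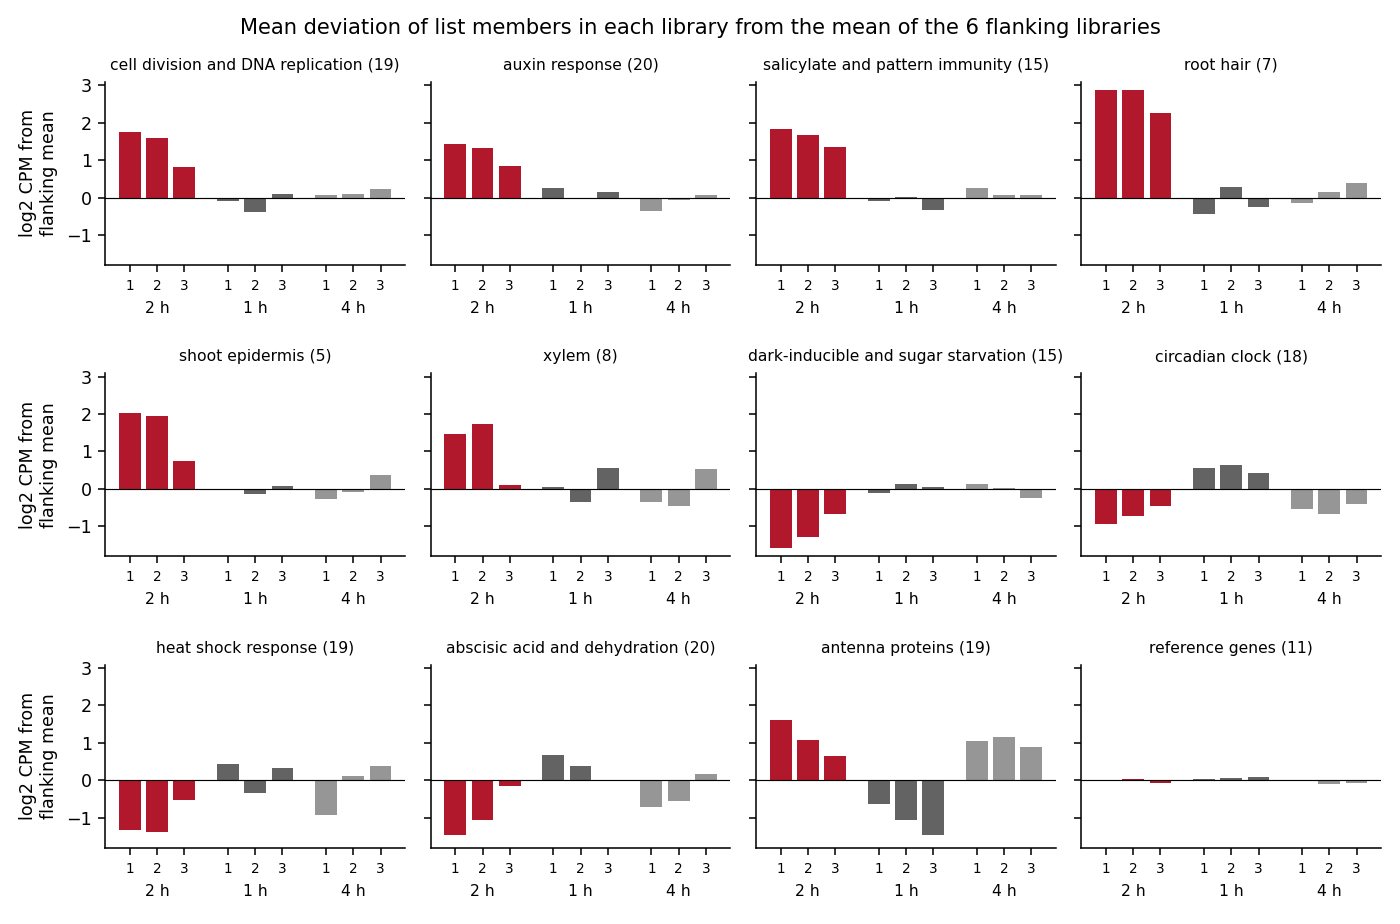
Mean distance of the members of 12 lists (tested members in brackets) from their mean in the 6 flanking libraries, on the log2 CPM scale (y axis), in each of the 3 libraries of 2 h (red), 1 h (dark grey) and 4 h (light grey). The 2 h bars share a sign within each list except the reference genes, and replicate 3 is the smallest of the 3 in these lists except the reference genes. Antenna genes are high, and clock genes low, at 2 h and 4 h alike.

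What the same genes did later was read in the 0 h, 8 h and 12 h libraries, which the contrast did not use. Across the 20569 genes tested in all 18 libraries, 13.1% were higher and 9.19% lower at 12 h than in the dark, and 13.6% higher and 9.0% lower at 8 h (edgeR, same thresholds). Of the 1326 genes above both flanking times, 67 (5.05%) were higher and 312 (23.5%) lower at 12 h than in the dark, and 69 and 312 at 8 h. Of the 189 genes below both, 30 were higher and 25 lower at 12 h. One dark library, replicate 3, held several of the 2 h genes at high levels. Without it, 102 (7.69%) of the genes above both were higher and 265 (20%) lower at 12 h, against 16.2% and 9.22% of all genes. BT1 ended above its dark level, with a log2 fold change of 2.24 at 12 h (edgeR adjusted p = 6.35e-05), and so did LHCB2.3 at 3.6 (edgeR adjusted p = 3.21e-05), while MCM3 and PDF1 were not called, at 0.26 and -0.36 (adjusted p = 0.601 and 0.542).

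The genes above both flanking times were mostly of low level. Their median was 5.18 FPKM at 2 h and 1.33 FPKM in the flanking libraries, and 42.4% of them averaged under 1 FPKM there, against 12.4% of all genes tested. The filter on counts keeps a gene with enough counts in 1 group only, so genes near silent at 1 h and 4 h entered through 2 h. Such genes could be called only higher, so the low flanking levels are in part set by the filter and the choice. The genes below both had a median of 12.4 FPKM at 2 h and 33.2 FPKM in the flanking libraries. Transcripts were of ordinary length and base composition in the genes above both, with a median of 1706 bases and 41.3% GC, against 1729 bases and 41.3% in all genes tested, and somewhat shorter in the genes below both (1400 bases, 39.9% GC). By the annotated product, the largest share above both among families of at least 20 tested genes was in mannose-binding lectin superfamily proteins, with 10 of 20 (50%). Invertase and pectin methylesterase inhibitors had 7 of 21 (33.3%), GDSL-like lipases 14 of 46 (30.4%) and peroxidases 12 of 46 (26.1%). The largest share below both was in thioredoxin superfamily proteins, with 6 of 42 (14.3%). Of all genes tested 6.57% were above both and 0.937% below both. These families were picked after their values were seen, and no test was made of them.

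Short motifs were counted in the 250 bases before the gene start, on both strands, as a description. The evening element, shown above for the clock genes, was in 7.45% of 188 upstream regions of genes below both flanking times (14 regions), against 1.96% of those above both and 2.44% of 20096 regions of genes tested. The E2F site was in 2.49% of those above both (33 regions) and in none of those below both, against 0.965% of all. The G-box CACGTG was in 10.1% of those below both and 5.96% above both, against 7.52% of all, and the element TATCCA, known from sugar-repressed genes, in 19.1%, 11.7% and 14.2%. The W-box (TTGACC or TTGACT), which WRKY factors bind, was in 26.6% below both and 34.0% above both, against 28.3%. The site II element TGGGCC of growth genes was in 9.88% of those above both, against 16.2% of all. The other motifs counted were the telo-box AAACCCTA (3.72% below both, 1.81% above both, 3.49% of all), the dehydration response core CCGAC (9.57%, 11.0% and 13.0%), the heat shock element GAANNTTC (10.6%, 12.1% and 9.38%) and the CCA1 site AAAAATCT (9.04%, 6.03% and 6.75%). No motif word contains another. A match says only that the letters are there, and no test was made of these shares.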

How the data were processed

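PolyA RNA of whole seedlings was sequenced with the BGISEQ-500 library protocol, per the labels. The deposited gene tables give, per the file headers, an expected count (an estimated number of reads) and an FPKM value scaled by the authors to length and depth. The submitters' processing notes name RSEM, Bowtie2 and HISAT2, with no role, version or build. Genes not listed in a library were set to 0. Transcript tables were not used here.

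Expected counts were rounded and tested with edgeR 4.0.16 (R 4.3.3) in the 9 libraries of 2 h, 1 h and 4 h, after filterByExpr by group and TMM scaling. The contrast was 2 h minus the mean of 1 h and 4 h, p-values were adjusted over all 20179 genes kept of 24951, and the common biological coefficient of variation was 0.201. Standard errors are approximate, the size of the log2 contrast over the root of the F statistic. The 12 h and 8 h groups were compared with 0 h in a fit of all 18 libraries. The script was tested on simulated data.

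The members and lists were chosen with earlier results of these data known. Of 491 list names, 457 matched 1 locus and 438 members were tested; names that matched a gene of another kind (CRB, FDH, SAUR21) were left out. Named genes are the 16 highest and 10 lowest contrasts among genes beyond both flanking times, with 2 h libraries free of overlap and at least 10 CPM in the higher group, and up to 4 members per list, those called first, by size. Other list members in the text, and the families by annotated product, were chosen after their values were seen. Names, lengths, GC content and upstream sequence came from RefSeq TAIR10.1, which held 99.18% of the gene identifiers; in 99.95% of these the coordinates equal those in the files. Between 77.8% and 78.5% of listed genes per library had a whole number as the deposited value, which has 2 decimals, and 21.3% of genes tested had mostly fractional counts, that is not whole in most of the libraries that list the gene. Alternatives were another scaling (RLE, library size alone), no filter, DESeq2 1.42.0, limma 3.58.1 on log2(FPKM + 1) or log2(FPKM + 0.1), all 18 libraries, the replicate number as a block, no minimum size, a correction for GC and length, no mostly fractional genes, and each library left out.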

Additional observations from a re-analysis of the deposited data

How the results depend on the processing

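The counts of genes called higher, called lower, above both and below both flanking times (2255, 412, 1326 and 189) moved with the minimum size and with single libraries. With single libraries left out they ranged over 1527 to 3046, 198 to 1015, 624 to 2510 and 74 to 789. The lowest values came without 2 h replicate 1 (198 lower, 675 above, 75 below), 2 h replicate 2 (253, 687 and 74), 4 h replicate 1 (624 above, 74 below) or 4 h replicate 2 (752 above, 108 below), and the highest without 2 h replicate 3. Below both, leaving out 1 h replicate 1 or 1 h replicate 2 gave 122 each and leaving out 4 h replicate 3 gave 121. No minimum size gave 4606 higher, 3254 lower and 729 below both. Limma on log2(FPKM + 1) gave 1263, 254, 820 and 114, and without a filter 1252, 246, 720 and 92, where the added 1 shrinks the values of low genes. Library size alone gave 122 below both; the cause was not tested. Apart from the replicate block below, the counts under the other alternatives stayed within 1.5 times.

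With the replicate number as a block, 872 genes were above both and 141 below both, with 2030 higher and 422 lower. Same-numbered libraries did not deviate together (correlations of deviations between -0.375 and 0.091), so the numbers were not taken to pair samples. The deposited files number the libraries otherwise than the labels at 0 h (2, 3 and 4) and 2 h (1, 3 and 4); the label numbers were used throughout. Libraries did not all correlate best with their own number.

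The difference in genes listed was 422 to 567 with single libraries left out, and 422, 425 and 567 without a 2 h library, where the exact p was 0.0714 and could not pass. The later course counts held within 1.5 times except that no minimum size gave 37 (8 h) and 42 (12 h) lower genes among those below both. Leaving out 0 h replicate 3, chosen after seeing the data, gave 115 and 102 higher genes among those above both at 8 h and 12 h, and 29 lower among those below both at 8 h. Of 121 named genes, 110 were past the threshold; none changed sign except 2 uncalled seed storage genes without 2 h replicate 3, SESA3 (-0.99, and up to 2.33 without 2 h replicate 2) and SESA2 (-0.22, and up to 2.02), and 24 lost the threshold without 2 h replicate 1, 16 without 2 h replicate 2. With 3 libraries per group, low-level genes (under 1 FPKM in the flanking groups) carry the least certain sizes.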

Other observations

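One library outside the contrast held several of the genes highest at 2 h at a high level. In 0 h replicate 3, CYP71A12 had 62.18 FPKM, against 0.03 and 0.48 FPKM in 0 h replicates 1 and 2. AT1G26390 had 36.83 FPKM there, against 0 and 0.52 FPKM, and CYP82C2 had 34.95 FPKM, against 0.02 and 0.17 FPKM. PBS3 had 5.81 FPKM, against 0 and 0.2 FPKM, FMO1 had 3.51 FPKM, against 0.16 and 0.16 FPKM, and AT3G13610 had 38.47 FPKM, against 0.33 and 1.07 FPKM. The extensin-like AT1G26240 had 14.03 FPKM there, against 0.03 and 0.13 FPKM. Root hair genes were low there: RHS19 was listed at 0 and PRP3 at 0.07 FPKM in that library, and the summed root hair markers reached at most 2.31 FPKM at 0 h, against 9.88 to 16 FPKM at 2 h. Other markers differed in that library too. Its summed seed storage markers were 12800 FPKM, against 1780 and 675 FPKM in 0 h replicates 1 and 2, its root endodermis and stele markers 223 FPKM, against 719 and 614 FPKM, and its shoot epidermis markers 293 FPKM, against 603 and 596 FPKM. Its share of mitochondrial-genome counts was 0.011%, against 0.00479% and 0.00497%. The part these played was not tested. The isochorismate synthase EDS16 had 3.38 FPKM in 0 h replicate 3, against 2.57 and 1.85 FPKM in the other dark libraries. At 8 h and 12 h CYP71A12 was at most 0.47 FPKM and FMO1 at most 0.05 FPKM in each library.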
